A study of Mus musculus with 16 samples.

Results

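The interferon-stimulated genes examined here are 39 genes that interferons are known to switch on, taken from a list of gene symbols. Of these, 36 were on the array under the listed symbol, with 51 probes, out of 18097 gene symbols and 25697 probes in all. A probe was kept when its signal was detected (detection p under 0.05) on at least 3 of 15 arrays, which left 34 of the genes with 43 probes, against 10936 genes and 14763 probes for the whole array. Ifit1 (1 probe) and Ifi44 (2 probes) were on the array but were detected on 0 arrays. Isg15, Irgm1 and Xaf1 had no probe under those symbols. Irgm1 matched by gene identifier to 3 probes under the older symbol Irgm, which are described with the GTPases and are not counted among the 34 genes. Where a gene had several kept probes, it was counted by the one with the highest mean level.

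Total RNA of hamstring muscle from female mice, taken 2 days after surgery, was measured on Illumina BeadChips, with 1 mouse title per array. All mice had either spinal cord injury (SCI) at the lower thoracic spine or sham surgery, and an intramuscular injection of either cardiotoxin (CDTX, a peptide from snake venom that lyses muscle fibres) or saline. The groups were Sham+Saline, SCI+Saline, Sham+CDTX and SCI+CDTX, with 4 arrays each, and no group lacked an injection. SCI+CDTX replicate 2 is marked as excluded by the submitters, so 3 SCI+CDTX arrays and 15 arrays in all entered the comparisons. The series design names SCI+CDTX as the one condition in which bone forms inside the injured muscle (neurogenic heterotopic ossification), and the comparisons separate the toxin from the cord injury. Strain and age are not given in the sources used here. Nothing beyond the numbered mouse titles says that arrays come from separate animals, so p-values measure the spread between these arrays, which may be technical.

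Interferons are secreted proteins that signal through paired cell-surface receptors. The receptors activate the JAK1, TYK2 and JAK2 kinases, and these phosphorylate transcription factors. Type I interferon signalling assembles a complex that contains STAT2 and IRF9 and binds the interferon-stimulated response element (ISRE) in promoters. Type II interferon mainly acts at the gamma-activated sequence (GAS). The induced genes encode sensors of viral nucleic acid, enzymes that block translation or cut RNA, membrane and GTPase effectors, peptide transporters for antigen presentation, and the transcription factors that keep the response going. In damaged tissue, arriving macrophages and the resident cells both express many of them.

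Promoter windows show how many members carry these elements in the sequence next to the start. RefSeq windows on GRCm38.p6, from 250 bases before to 50 bases after the annotated start, were found for 31 of the 39 genes by symbol. An ISRE core, spelled GAAANNGAAA and searched on both strands, was present in 17 of those 31 genes (54.8%), against 3.99% of 27025 genes with a window. A GAS core, spelled TTCNNNGAA, reads the same on both strands and was present in 10 of 31 genes (32.3%), against 9.55% of all genes. Neither match is evidence of a used site. The windows of Ifitm3, Ifit3, Gbp3, Rsad2 and Irf8 are printed because the expression results below turn on these genes, and because they show different arrangements of the elements. Each runs 5′ to 3′ along the gene from 250 bases before to 30 bases after the start. Capitals mark the ISRE core in the first 4 and the GAS core in Irf8, which had no ISRE core in its window.
Ifitm3: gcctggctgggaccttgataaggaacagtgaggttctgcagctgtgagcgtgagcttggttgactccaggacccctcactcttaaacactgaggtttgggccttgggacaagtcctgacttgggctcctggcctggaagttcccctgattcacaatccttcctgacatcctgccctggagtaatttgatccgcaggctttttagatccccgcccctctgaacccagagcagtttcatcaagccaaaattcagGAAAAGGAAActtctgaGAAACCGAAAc
Ifit3: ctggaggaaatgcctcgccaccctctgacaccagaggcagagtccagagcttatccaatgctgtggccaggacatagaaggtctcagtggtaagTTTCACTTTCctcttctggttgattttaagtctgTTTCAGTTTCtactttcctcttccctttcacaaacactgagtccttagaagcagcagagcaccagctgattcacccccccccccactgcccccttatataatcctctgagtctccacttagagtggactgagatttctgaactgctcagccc
Gbp3: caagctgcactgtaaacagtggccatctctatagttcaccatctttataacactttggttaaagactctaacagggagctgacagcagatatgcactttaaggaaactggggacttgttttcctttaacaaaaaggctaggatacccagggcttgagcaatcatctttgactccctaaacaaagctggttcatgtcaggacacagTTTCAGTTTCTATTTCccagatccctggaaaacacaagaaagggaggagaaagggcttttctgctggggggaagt
Rsad2: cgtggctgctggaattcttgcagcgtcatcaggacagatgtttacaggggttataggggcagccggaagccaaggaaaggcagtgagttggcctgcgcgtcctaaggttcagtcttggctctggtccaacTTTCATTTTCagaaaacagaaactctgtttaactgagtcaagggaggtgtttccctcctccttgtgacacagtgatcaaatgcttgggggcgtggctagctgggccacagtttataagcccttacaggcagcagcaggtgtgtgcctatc
Irf8: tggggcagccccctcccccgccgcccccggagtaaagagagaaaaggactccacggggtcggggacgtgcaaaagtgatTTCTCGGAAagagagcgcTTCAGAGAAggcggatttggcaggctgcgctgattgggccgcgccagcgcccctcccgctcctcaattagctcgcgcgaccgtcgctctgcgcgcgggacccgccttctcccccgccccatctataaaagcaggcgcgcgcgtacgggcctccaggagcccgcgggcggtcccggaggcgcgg

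The Ifitm3 window lies at chr7:141010715-141010994 on the minus strand. Its ISRE cores both fall after the start, at +3 to +12 and +20 to +29, and a GAS core at +14 to +22 overlaps the second of them. The Ifit3 window, chr19:34583279-34583558 on the plus strand, has ISRE cores at -156 to -147 and -122 to -113, both on the reverse strand. In Gbp3, chr3:142559794-142560073 on the plus strand, a pair of overlapping ISRE cores covers -45 to -30. The Rsad2 window, chr12:26456423-26456702 on the minus strand, holds a single ISRE core at -120 to -111. The Irf8 window, chr8:120736108-120736387 on the plus strand, holds GAS cores at -171 to -163 and -153 to -145. Tandem ISRE cores that share bases were also found in Bst2, Irgm1, Isg15 and Oas1a.

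**Figure D1:**
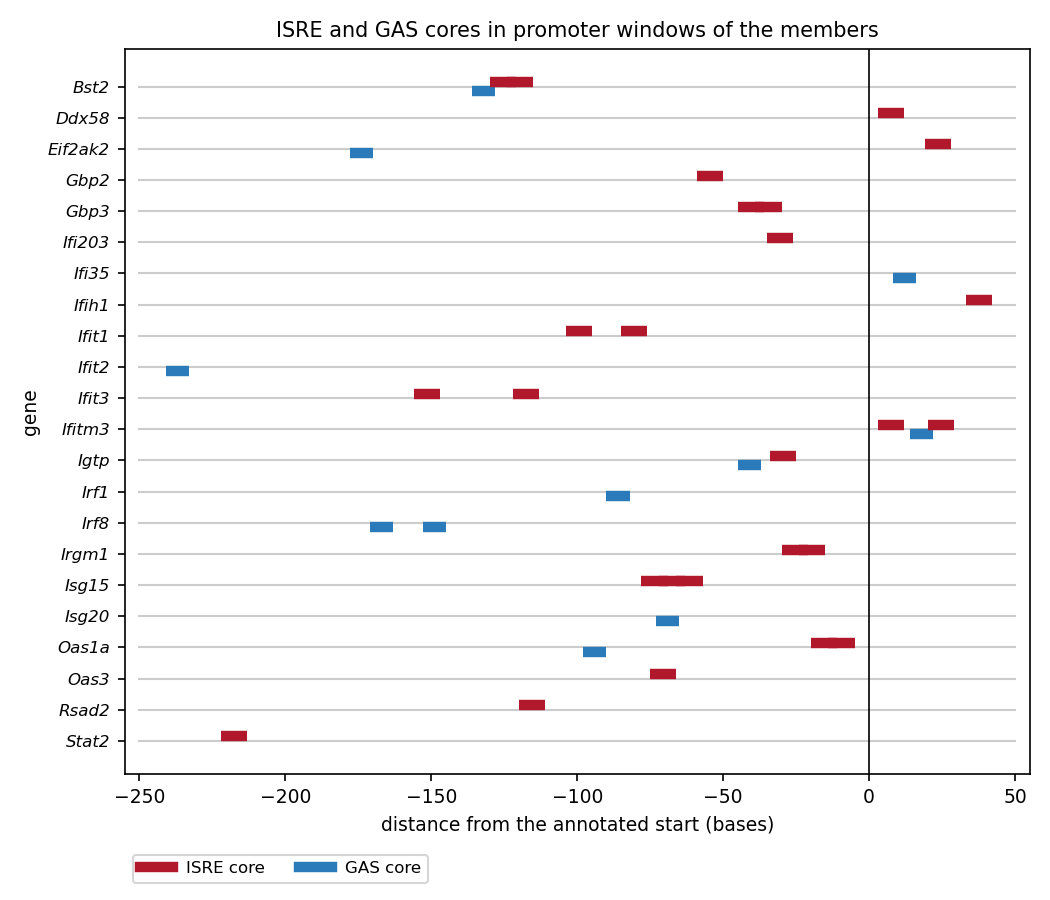
Position of ISRE cores (red) and GAS cores (blue) in the promoter windows of the 22 genes with at least 1 core, against the distance in bases from the annotated start, with the start at 0. ISRE cores cluster in the bases before the start from Ifit3 to Oas1a, with Stat2 farthest, and those of Ddx58, Eif2ak2, Ifih1 and Ifitm3 lie after it.

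Several properties of the arrays touch the results. Each array detected 11114 to 13694 probes, and the mean raw intensity of the Sham+Saline arrays (230.5 to 277) was below that of every other array (319.9 to 373.1). All SCI arrays were on 1 slide and all sham arrays on another, so slide and surgery cannot be told apart in any SCI against sham comparison, while both toxin comparisons lie within a slide. A score was taken from the difference between the 2 brightest probes of 2789 genes outside the list, as the leading component of that difference (33.2% of its variance). It was 18.3 to 20.6 in the 4 Sham+CDTX arrays and 15 in the excluded SCI+CDTX array, against -14 to -3.35 in the other 11 arrays. A fit of all 16 arrays with this score as a covariate was also made, and the member calls that it changed in a comparison are named with that comparison. Ligands, receptors, kinases, cell markers and other genes outside the list were read without the score, so their calls may depend on it. Among toxin arrays of SCI mice, the excluded array alone had a high score, so the fit separates score from surgery there mainly through that array. No pair of arrays held identical values.

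Cardiotoxin alone was followed by higher levels of most of the measured members. In Sham+CDTX against Sham+Saline, 28 of 34 genes rose and 2 fell (limma adjusted p under 0.05 over all kept probes), while 23.8% of all tested genes rose and 26.8% fell. The median log2 fold change of the members was 1.24, against -0.05 for all genes. The largest rises were those of Irf8 (5.91-fold), Ifitm3 (5.88-fold), Ifit2 (5.48-fold), Oasl2 (5.23-fold) and Irf7 (4.62-fold). Some members passed the detection filter mainly through the toxin groups (Ifi203, Oas3 and Oas1a were detected on no saline array), so the counts over kept genes favour genes that are high there. With no filter, 29 of the 36 genes on the array rose and 2 fell, against 14% and 15.7% of 18097 genes.

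After cord injury the toxin had a similar direction with fewer calls. In SCI+CDTX against SCI+Saline, 22 of 34 genes rose and 0 fell (limma, 23 and 0 at an unadjusted p under 0.05), against 22.1% higher and 22.2% lower among all genes. The median of the members was 1.02, against -0.04 for all genes, and all 34 had a positive difference. With no detection filter, 20 of 36 rose and 0 fell, against 12.9% and 12.6%. Oasl2 (4.04-fold), Oas2 (3.7-fold), Irf5 (3.41-fold) and Ifi47 (3.32-fold) had the largest rises. With the score as a covariate, the same 22 genes rose (background 21.9% higher, 20.6% lower), and 23 of the 30 genes called in the sham comparison kept their call and direction (12.2% higher, 9.5% lower). The median of the members in sham mice was then 1.9. The other 7 were Ifi203, Ifih1, Irf7, Isg20, Mx2 and Zbp1, which did not pass, and Tap2, which was called in the opposite direction. Igtp, not called before, was higher (1.57, adjusted p = 0.0208). In sham mice the score did not overlap between Sham+CDTX (18.3 to 20.6) and Sham+Saline (-13.6 to -8.56). Score and toxin are thus hard to separate there, and the kept calls do not show independence from the score.

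**Figure D2:**
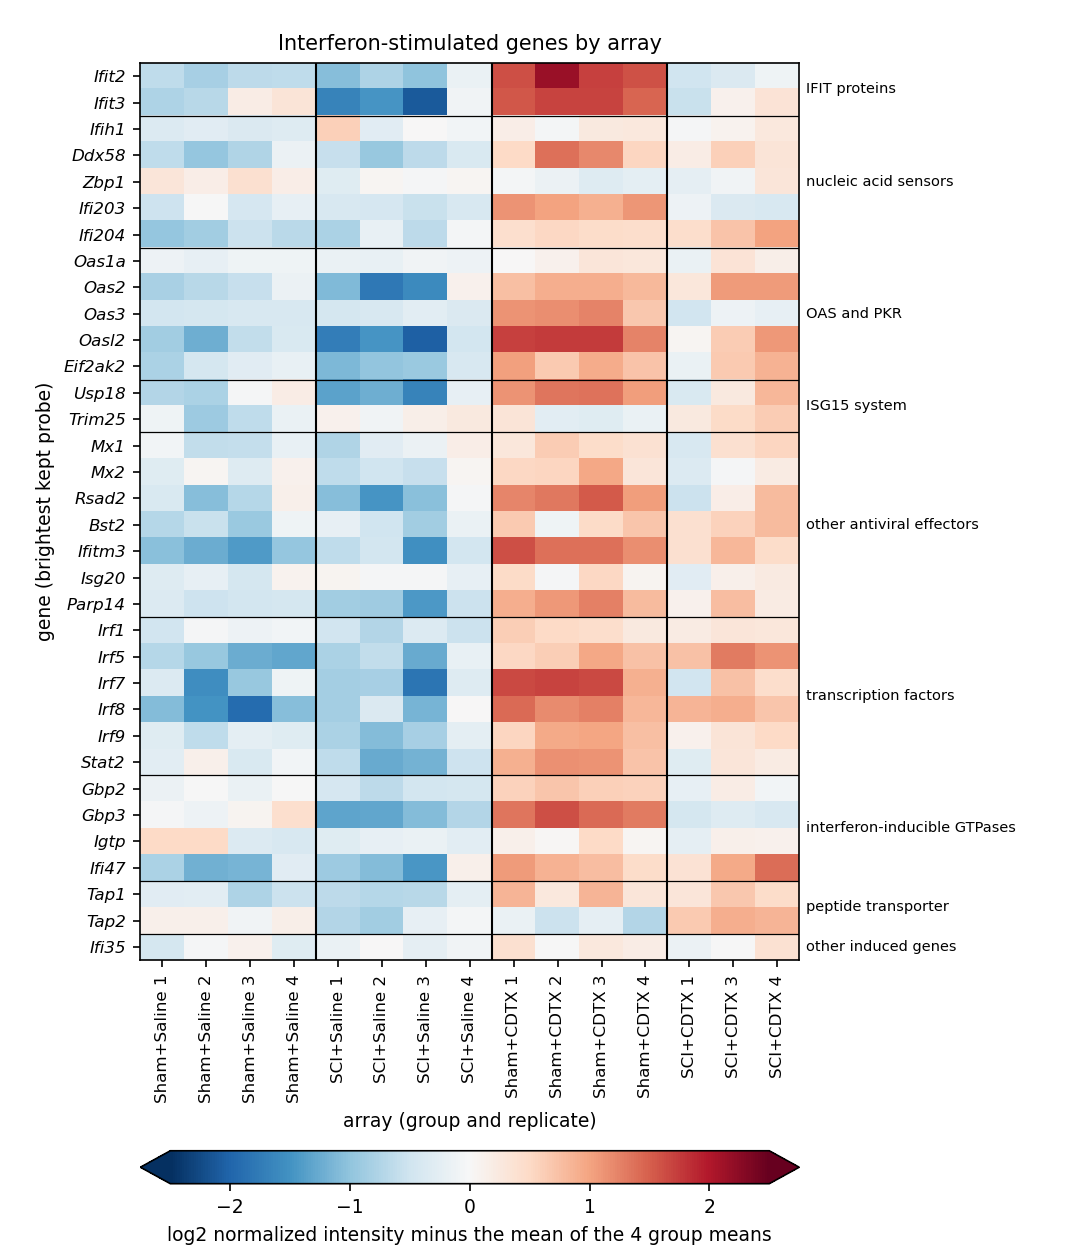
Log2 normalized intensity of the 34 kept genes (rows, grouped by role) on the 15 arrays (columns), shown as the difference from the mean of the 4 group means, on a colour scale that ends at -2.5 and 2.5. Red in the Sham+CDTX columns covers nearly all rows, with Tap2, Zbp1 and most arrays of Trim25 as exceptions. The SCI+CDTX columns are paler, most of all replicate 1.

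Among the IFIT proteins, which bind viral RNA that lacks host cap marks, Ifit2 and Ifit3 separated the groups most. Both are on chromosome 19 at 19qC1 in the array annotation. Ifit2 was at log2 8.04, 8.58, 8.13 and 8.02 in Sham+CDTX and at 5.94, 6.07 and 6.33 in SCI+CDTX. It was at 5.36, 5.65, 5.43 and 6.27 in SCI+Saline and at 5.79, 5.6, 5.77 and 5.79 in Sham+Saline. Every Sham+CDTX array was therefore above every other array by more than 1 log2 unit, and the SCI+CDTX range overlapped that of SCI+Saline. Ifit2 rose by 2.45 ± 0.18 (SE) after the toxin in sham mice (adjusted p = 1.14e-08), and its change of 0.44 ± 0.20 after SCI did not pass (adjusted p = 0.0844). The difference between these 2 effects, the interaction, was -2.02 ± 0.27 (adjusted p = 5.63e-05), and with the score it was -1.63 and did not pass (adjusted p = 0.0946). A second Ifit2 probe gave 2.85, 0.37 and -2.49 for the same quantities with 15 arrays.

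Ifit3 moved in both toxin comparisons. Its levels were 9.99, 10.13, 10.13 and 9.89 in Sham+CDTX, 7.88, 8.54 and 8.78 in SCI+CDTX, 6.77, 6.95, 6.34 and 8.35 in SCI+Saline, and 7.67, 7.75, 8.62 and 8.75 in Sham+Saline. SCI+CDTX arrays thus overlapped the Sham+Saline arrays, and SCI+Saline replicate 4 stood well above the other arrays of its group. Ifit3 rose by 1.84 ± 0.33 after the toxin in sham mice and by 1.29 ± 0.36 after SCI (adjusted p = 0.000151 and 0.00686). Its interaction of -0.54 ± 0.49 (95% interval -1.57 to 0.48) did not pass. A second Ifit3 probe rose by 1.24 in sham mice, and its difference of 0.58 after SCI did not pass (adjusted p = 0.143).

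The sensors of foreign or misplaced nucleic acid rose in 4 of 5 genes in sham mice (1 fell) and in 2 of 5 after SCI. Over all genes, 23.8% and 22.1% rose. Ddx58, which encodes the RNA sensor RIG-I, rose 2.88-fold in sham mice and 2-fold after SCI. Ifi204, a DNA-binding protein of the p200 family at 1qH3, rose by 1.22 ± 0.17 and 1.14 ± 0.18. It was not well above background on any Sham+Saline array, and its bounded rise there was at least 1.8-fold. Its neighbour Ifi203 was at 5.9, 5.78, 5.67 and 5.89 in Sham+CDTX and between 4.23 and 4.78 on each of the other 11 arrays. Ifi203 rose at least 2-fold after the toxin in sham mice (fitted 1.32 ± 0.14, adjusted p = 2.89e-07), but with the score as a covariate this difference was 0.08 (adjusted p = 0.911). Without the score, its difference after SCI was 0.15 ± 0.15 (adjusted p = 0.449). The interaction for Ifi203 was -1.17 ± 0.20 (adjusted p = 0.000362), and with the score as a covariate it was -0.04 (adjusted p = 0.981).

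Ifih1, the RNA sensor MDA5, was close to background, at a mean of 4.29 to 4.77 across the groups. It rose by 0.48 ± 0.16 in sham mice (adjusted p = 0.0179), which was 0.19 with the score (adjusted p = 0.805), and its difference after SCI was 0.04 ± 0.17. Zbp1, a sensor of Z-form nucleic acid, was one of the 2 members called lower after the toxin in sham mice (-0.45 ± 0.14, adjusted p = 0.0132). That direction turned to 0.56 with the score, to 0.32 with median scaling and to 0.14 in the authors' deposited table.

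The 2′-5′ oligoadenylate synthetases make the messenger that activates RNase L, and PKR, encoded by Eif2ak2, halts translation on double-stranded RNA. Oas1a, Oas2, Oas3 and Oasl2 are all placed at 5qF by the array annotation. Oasl2 was at 10.34, 10.38, 10.37 and 9.88 in Sham+CDTX and at 8.68, 9.26 and 9.71 in SCI+CDTX. The SCI+Saline arrays were at 6.91, 7.16, 6.58 and 8.18, and the Sham+Saline arrays at 7.76, 7.4, 8.01 and 8.25. The toxin groups lay above both saline groups with no overlap, and the 2 toxin groups did not overlap each other. Oasl2 rose by 2.39 ± 0.28 in sham mice and 2.01 ± 0.30 after SCI (adjusted p = 1.44e-06 and 4.31e-05), and the interaction of -0.37 ± 0.41 (95% interval -1.24 to 0.5) did not pass. A second Oasl2 probe gave another outcome, with rises of 1.78 and 0.60 and a called interaction of -1.18 ± 0.27 (adjusted p = 0.00408).

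Oas3, in the same gene cluster, was high in Sham+CDTX alone. It was at 5.8, 5.85, 5.92 and 5.35 in Sham+CDTX and between 4.21 and 4.56 on every other array, where it was detected on 1 array in all. Its rise in sham mice was at least 1.9-fold (fitted 1.46 ± 0.14, adjusted p = 1.24e-07), while the difference after SCI was 0.10 ± 0.15 (adjusted p = 0.631), with an interaction of -1.36 ± 0.20 (adjusted p = 0.000125). With the score, the interaction was -1.19 and did not pass (adjusted p = 0.114). Oas2 was at 6.99, 7.14, 7.14 and 7.05 in Sham+CDTX, 6.51, 7.29 and 7.29 in SCI+CDTX, 5.13, 4.45, 4.64 and 6.35 in SCI+Saline, and 5.43, 5.54, 5.66 and 6.09 in Sham+Saline. It rose by 1.40 ± 0.30 in sham mice and 1.89 ± 0.32 after SCI, and both toxin groups lay above both saline groups. Eif2ak2 was at 8.35 to 8.72 in Sham+CDTX and 7.54 to 8.58 in SCI+CDTX, against 6.91 to 7.52 in Sham+Saline and 6.58 to 7.31 in SCI+Saline, and rose 2.38-fold and 2.49-fold. Oas1a was detected on 3 arrays, and neither of its toxin differences passed (0.31 ± 0.13 and 0.24 ± 0.14, adjusted p = 0.0565 and 0.18).

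The ISG15 system attaches a ubiquitin-like protein to targets. Usp18 removes ISG15 and also restrains the type I receptor. It was at 8.51, 8.73, 8.75 and 8.43 in Sham+CDTX, at 7.01, 7.62 and 8.21 in SCI+CDTX, and from 5.72 to 7.56 in the saline groups. Usp18 rose by 1.57 ± 0.29 in sham mice and by 1.34 ± 0.31 after SCI, with SCI+CDTX replicate 1 below the highest saline arrays. Trim25, a ubiquitin ligase that acts on RIG-I, was at 5.59, 5.02, 4.98 and 5.1 in Sham+CDTX, 5.52, 5.76 and 5.91 in SCI+CDTX, 5.39, 5.18, 5.43 and 5.51 in SCI+Saline, and 5.16, 4.37, 4.65 and 5.11 in Sham+Saline. The sham groups held the lower arrays, apart from Sham+CDTX replicate 1, and Trim25 passed in neither toxin comparison (0.35 ± 0.18 and 0.36 ± 0.20).

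All 7 measured genes of the other antiviral effectors rose after the toxin in sham mice, and 4 rose after SCI, against 23.8% and 22.1% of all genes. Ifitm3, which keeps viruses from fusing with endosomal membranes, was at 13.4, 13.16, 13.17 and 12.94 in Sham+CDTX and at 12.18, 12.61 and 12.25 in SCI+CDTX. It was at 11.14, 11.33, 10.25 and 11.32 in SCI+Saline and at 10.73, 10.55, 10.36 and 10.81 in Sham+Saline. Toxin arrays and saline arrays did not overlap, nor did the 2 toxin groups. Ifitm3 rose by 2.56 ± 0.20 in sham mice and by 1.34 ± 0.22 after SCI (adjusted p = 2.24e-08 and 0.000104), with an interaction of -1.22 ± 0.30 (adjusted p = 0.00642). With the score, that interaction was -0.62 (adjusted p = 0.602).

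Rsad2, the radical SAM enzyme viperin, was at 9.38, 9.47, 9.68 and 9.19 in Sham+CDTX and at 7.61, 8.32 and 8.94 in SCI+CDTX. The 8 saline arrays ran from 6.67 to 8.27, so 1 SCI+CDTX array lay inside their span. Rsad2 rose by 1.79 ± 0.30 in sham mice and by 1.04 ± 0.32 after SCI (adjusted p = 6.83e-05 and 0.0139). Parp14, an ADP-ribosyltransferase, rose 2.73-fold and 2.44-fold, and Bst2, the tether that holds budding virions at the membrane, rose 2.01-fold and 2.04-fold. Mx1, Mx2 and Isg20 rose in sham mice by 0.80, 0.69 and 0.48 log2 units, and Mx2 and Isg20 did not pass with the score (adjusted p = 0.0904 and 0.269). Their differences after SCI (0.43, 0.37 and 0.08) did not pass.

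By brightest probe, the transcription factors were the one group in which every member rose in both toxin comparisons, 6 of 6. Of all genes, 23.8% rose in sham mice and 22.1% after SCI. Irf7, the factor that amplifies type I interferon production, was at 7.92, 7.96, 7.92 and 7.15 in Sham+CDTX and at 5.78, 6.99 and 6.7 in SCI+CDTX. Saline arrays ran from 4.44 to 6.16. Irf7 rose by 2.21 ± 0.33 in sham mice (adjusted p = 2.35e-05, and 0.0679 with the score) and by 1.18 ± 0.36 after SCI (adjusted p = 0.0127), with SCI+CDTX replicate 1 inside the span of the saline arrays.

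Irf8, a factor of the macrophage and dendritic cell lineage, was at 7.9, 7.65, 7.73 and 7.31 in Sham+CDTX and at 7.33, 7.39 and 7.18 in SCI+CDTX. It was at 5.62, 6.11, 5.32 and 6.48 in SCI+Saline and at 5.39, 4.98, 4.55 and 5.41 in Sham+Saline. The 2 toxin groups overlapped, and so did the 2 saline groups at their edges. Irf8 rose by 2.56 ± 0.23 in sham mice and by 1.42 ± 0.25 after SCI, and it was higher in SCI+Saline than in Sham+Saline by 0.80 ± 0.23 (adjusted p = 0.0119). The interaction was -1.15 ± 0.33 (adjusted p = 0.0174), and -0.60 (adjusted p = 0.677) with the score.

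Irf5, which acts downstream of Toll-like receptors in macrophages, was at 7.06, 7.16, 7.5 and 7.27 in Sham+CDTX and at 7.28, 7.84 and 7.66 in SCI+CDTX, against 5.25 to 5.83 in Sham+Saline and 5.28 to 6.36 in SCI+Saline. The toxin groups overlapped and stood apart from the saline groups, with rises of 1.76 ± 0.20 and 1.77 ± 0.22 and an interaction of 0.01 (95% interval -0.61 to 0.63). Stat2 and Irf9, which belong to the ISRE-binding complex, rose by 1.12 and 1.18 log2 units in sham mice and by 0.97 and 1.05 after SCI. Stat2 was at 6.71, 6.98, 6.96 and 6.55 in Sham+CDTX, 5.52, 6.14 and 6.04 in SCI+CDTX, 5.2, 4.56, 4.64 and 5.32 in SCI+Saline, and 5.57, 5.96, 5.45 and 5.75 in Sham+Saline. SCI+CDTX thus overlapped Sham+Saline, and SCI+Saline lay below all other arrays. A dimmer Irf9 probe did not pass in sham mice (0.18, adjusted p = 0.471). Irf1, induced by type II interferon, rose 1.55-fold and 1.73-fold by its brightest probe. Its 3 other kept probes also rose in sham mice, while after SCI 1 rose (0.61) and 2 did not pass (-0.13 and 0.13). All 3 were lower in SCI+CDTX than in Sham+CDTX (-0.64, -0.79 and -0.54), where the brightest probe did not pass (-0.19), and 1 had a called interaction (-0.95, adjusted p = 0.0113).

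Of the interferon-inducible GTPases, which act on membranes around intracellular microbes, Gbp3 differed most by surgery. It was at 8.73, 9, 8.81 and 8.68 in Sham+CDTX and at 6.95, 7.06 and 6.98 in SCI+CDTX. It was at 6.06, 6.08, 6.3 and 6.66 in SCI+Saline and at 7.36, 7.27, 7.46 and 7.8 in Sham+Saline. The 4 groups did not overlap, and both SCI groups lay below both sham groups. Gbp3 rose by 1.33 ± 0.15 after the toxin in sham mice and by 0.72 ± 0.17 after SCI (adjusted p = 1.17e-06 and 0.00181). For the interaction, the estimate was -0.61 ± 0.23 (adjusted p = 0.0583) by this probe and -1.6 ± 0.19 (adjusted p = 1.8e-05) by a second Gbp3 probe, whose toxin difference after SCI was 0.01.

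Gbp2, beside Gbp3 at 3qH1, was at 8.32, 8.45, 8.34 and 8.32 in Sham+CDTX, 7.54, 7.93 and 7.68 in SCI+CDTX, 7.33, 7.1, 7.29 and 7.31 in SCI+Saline, and 7.6, 7.74, 7.59 and 7.74 in Sham+Saline. As for Gbp3, SCI+Saline was the lowest group and Sham+CDTX the highest, and Gbp2 rose 1.61-fold and 1.37-fold. Ifi47 was at 7.57 to 8.17 in Sham+CDTX and 7.46 to 8.5 in SCI+CDTX, against 5.65 to 7.23 over the saline arrays. It rose by 1.65 ± 0.29 and 1.73 ± 0.31, with an interaction of 0.08 ± 0.42. Igtp did not pass in either toxin comparison (0.11 ± 0.19 and 0.23 ± 0.21). The 3 probes under the older symbol Irgm disagreed. The brightest rose by 0.50 after SCI (adjusted p = 0.044) and its sham difference of 0.27 did not pass, while another rose by 1.24 in sham mice and fell by 0.58 after SCI, with an interaction of -1.82 (adjusted p = 4.46e-05).

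Tap1 and Tap2 together form the transporter that loads peptides onto MHC class I, and they share the locus 17qB1, but their levels followed different patterns. Tap1 rose by 1.03 ± 0.17 in sham mice, at least 1.7-fold, and by 1.05 ± 0.19 after SCI. Tap2 was at 8.39, 8.63 and 8.59 in SCI+CDTX and at 7.56, 7.2, 7.5 and 7 in Sham+CDTX. It was at 7, 6.87, 7.52 and 7.68 in SCI+Saline and at 7.85, 7.86, 7.64 and 7.87 in Sham+Saline. SCI+CDTX stood above all other arrays, and Sham+CDTX lay below Sham+Saline. Tap2 rose by 1.27 ± 0.19 after SCI (adjusted p = 4.05e-05) and fell by 0.49 ± 0.18 in sham mice (adjusted p = 0.0281), with an interaction of 1.76 ± 0.26 (adjusted p = 0.000116). With the score, the sham difference turned to 1.87 (adjusted p = 0.0055) and the interaction to -0.34 (adjusted p = 0.769), and with median scaling the sham difference was 0.30. Ifi35, the one kept gene of the remaining group, did not pass in either toxin comparison (0.37 ± 0.15 and 0.20 ± 0.17).

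**Figure D3:**
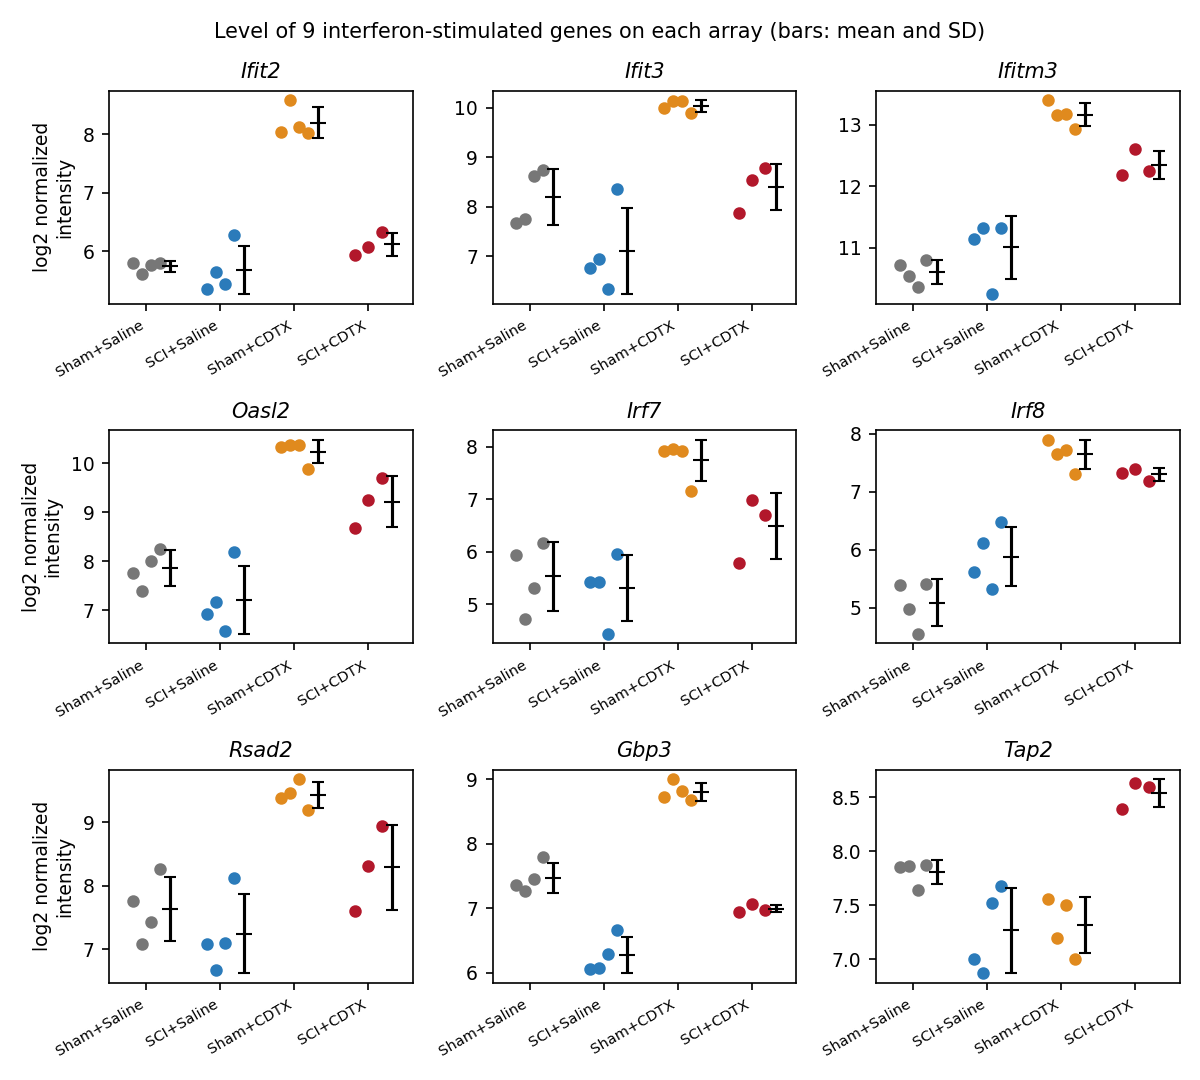
Log2 normalized intensity of 9 members on each array (points) in the 4 groups, with the mean and SD of the group beside the points (3 arrays for SCI+CDTX, 4 for each other group). Ifit2 is high in Sham+CDTX alone, Irf8 is high in both toxin groups, Gbp3 is lower after SCI with and without the toxin, and Tap2 is highest in SCI+CDTX.

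The size of the toxin effect was compared between the surgeries by the interaction, over arrays that the 2 toxin comparisons do not share. It was called for 6 of 34 genes, 1 higher and 5 lower, against 13.9% higher and 11.7% lower among all genes, so the share of lower members was near the background. The median interaction was -0.20, against 0.01 for all genes. The 5 lower genes were Ifit2, Oas3, Ifitm3, Ifi203 and Irf8, which rose less after SCI than after sham surgery, and the higher gene was Tap2. Oas3 and Ifi203 passed the detection filter through Sham+CDTX, the group whose height makes their interaction negative. With no filter, 5 of the 34 genes were called, all among these 6 and in the same direction. Over all 18097 genes, 1414 were then higher and 1122 lower. With the score as a covariate, limma called 0 of the 34 genes (11 lower and 0 higher at an unadjusted p under 0.05), against 0.0814% higher and 0.235% lower of 11057 genes, while the median was -0.88 and all 34 values were negative. All 34 values depend on the excluded array, which lay below its group in 24 of 34 genes, so their signs are not independent. With median scaling, which moved the median interaction of all genes to -0.24, 9 were lower, against 27.2% of all genes.

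**Figure D4:**
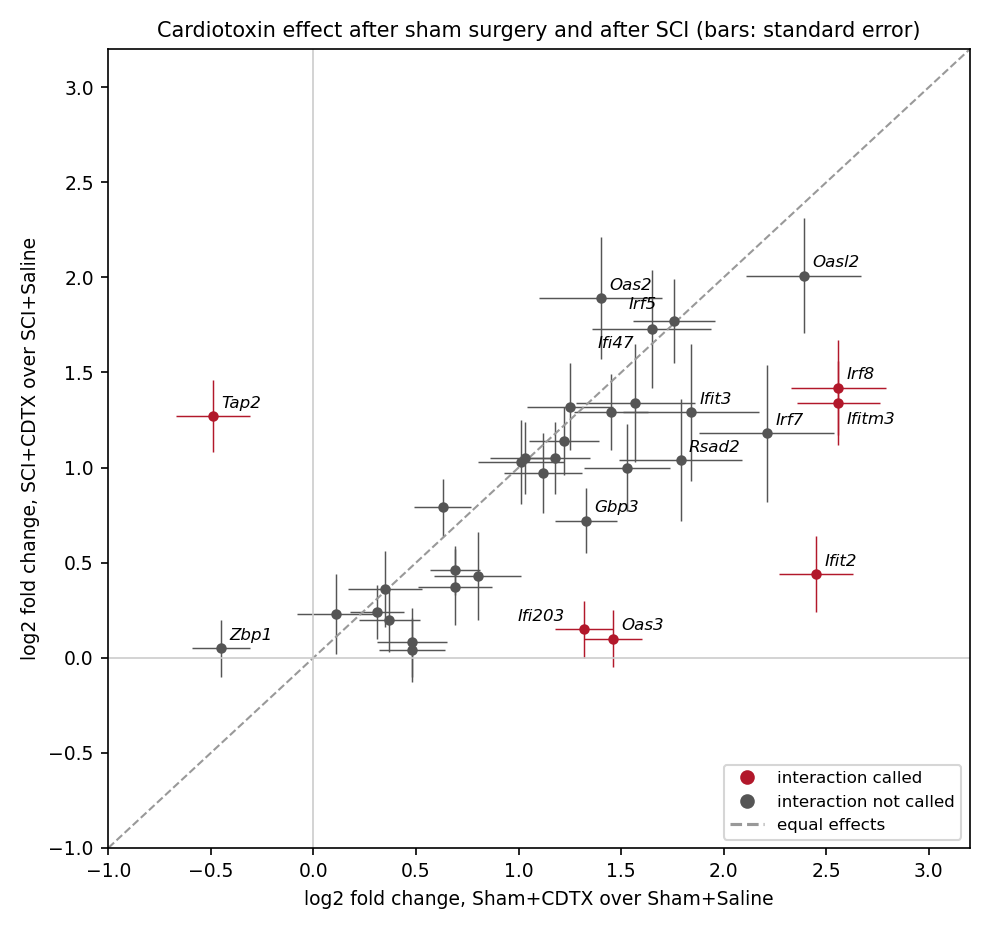
Log2 fold change after cardiotoxin in sham-operated mice (horizontal axis) and in mice with SCI (vertical axis) for the 34 kept genes, with standard errors as bars and the line of equal effects dashed. The 6 genes with a called interaction are red: Ifit2, Oas3, Ifi203, Ifitm3 and Irf8 lie below the line and Tap2 above it.

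In toxin-injected muscle, cord injury was associated with lower levels of a part of the list. In SCI+CDTX against Sham+CDTX, 15 of 34 genes were lower and 2 were higher, against 15.7% lower and 16.5% higher among all genes. The median of the members was -0.36, against 0.01 for all genes. With no filter, 11 of 36 were lower and 1 higher, against 8.4% and 9.13%. The largest differences were those of Ifit2 (-2.08 ± 0.20, adjusted p = 7.62e-07), Gbp3 (-1.81 ± 0.17, adjusted p = 5.28e-07) and Ifit3 (-1.64 ± 0.36, adjusted p = 0.00195). Oas3 and Ifi203 were both at -1.32 ± 0.15, and Irf7, Rsad2 and Oasl2 were lower by 2.37-fold, 2.2-fold and 2.03-fold. Tap2 (1.22 ± 0.19, adjusted p = 9.62e-05) and Trim25 (0.56 ± 0.20, adjusted p = 0.0378) were higher.

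Effectors were among the lower genes, as were Stat2 and Irf9 of the ISRE-binding complex. Irf9 was close to the limma threshold (adjusted p = 0.048, and 0.208 with the score). Usp18, Stat2, Ifitm3, Parp14, Gbp2, Mx2 and Irf9 were also lower, by 0.51 to 0.99 log2 units. For Usp18 and Irf9 a second probe did not pass here (-0.19 and -0.10, adjusted p = 0.564 and 0.788). Among the 17 genes that did not pass were Irf5 (0.35 ± 0.22), Ifi47 (0.11 ± 0.31), Oas2 (-0.05 ± 0.32), Bst2 (0.16 ± 0.22) and Tap1 (-0.09 ± 0.19).

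One array moved this count. SCI+CDTX replicate 1 was the lowest of its 3 arrays in 32 of 34 genes, against 37% of all genes. Without it, 8 genes were lower, against 13.5% of all genes: Ifit2 (-1.99), Gbp3 (-1.79), Ifi203 (-1.41), Ifit3 (-1.38), Oas3 (-1.21), Ifitm3 (-0.74), Stat2 (-0.71) and Gbp2 (-0.55). Irf7, Irf9, Mx2, Oasl2, Parp14, Rsad2 and Usp18 kept their direction and no longer passed.

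With the score as a covariate, 8 genes were lower and 0 higher, while the background fell to 0.642% lower and 1.3% higher. The 8 were Ifit3 (-2.54), Ifit2 (-1.74), Gbp3 (-1.71), Parp14 (-1.64), Stat2 (-1.58), Igtp (-1.32), Oas3 (-1.16) and Gbp2 (-0.95), of which 7 were also lower in the 15-array comparison. The median of the members was -0.98, 32 of 34 values were negative, and Tap2 and Trim25 turned to -0.65 and -0.11. Those signs all depend on the excluded array and are not independent. Ifit2, Ifit3, Gbp2, Gbp3, Oas3 and Stat2 were called lower under every setting tested. The excluded SCI+CDTX array, when normalized with the others, lay below the range of its group in 24 of 34 genes, within it in 4 and above it in 6. It was nearer to the Sham+CDTX mean than to its own group in 10.

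**Figure D5:**
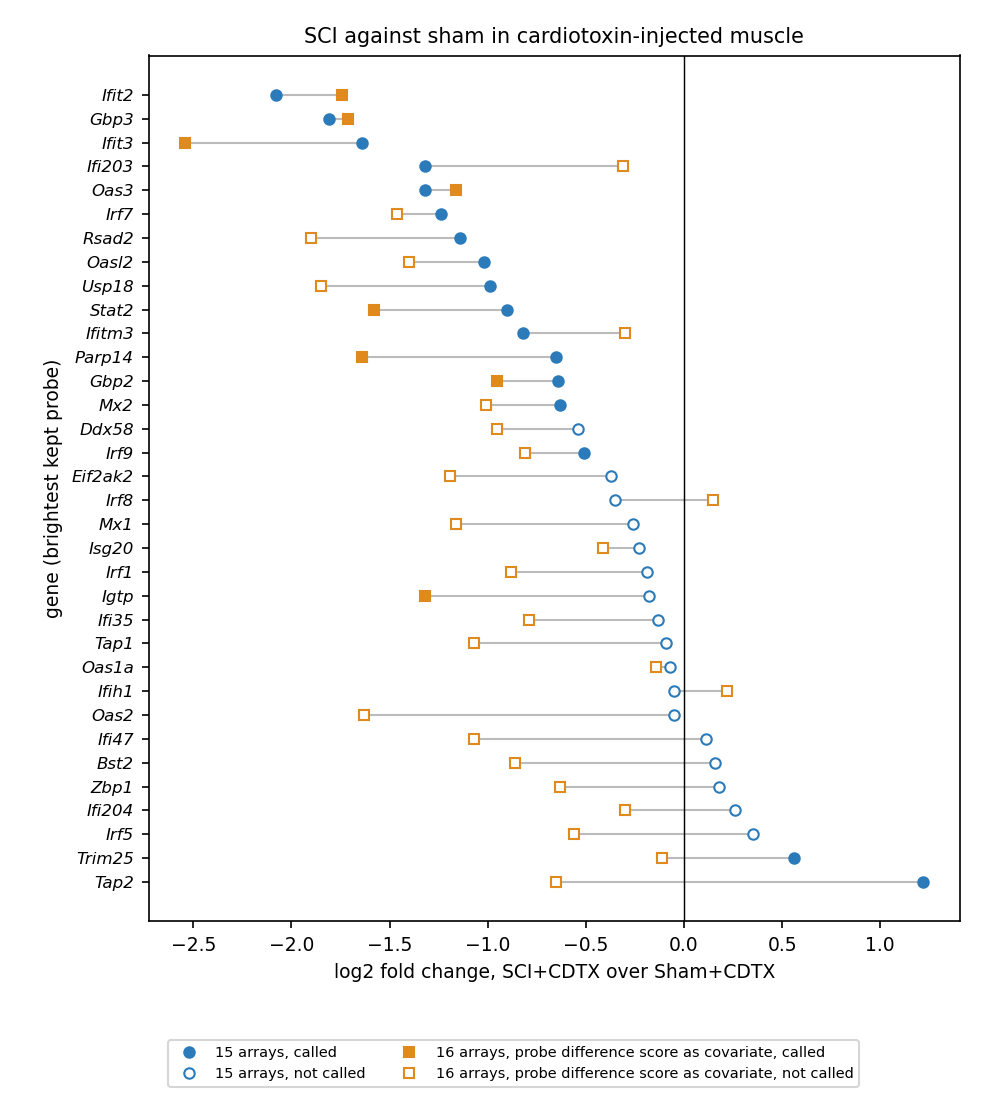
Log2 fold change of SCI+CDTX over Sham+CDTX for the 34 kept genes with 15 arrays (blue circles) and with 16 arrays and the probe difference score as a covariate (orange squares), where filled symbols passed an adjusted p under 0.05. Ifit2, Gbp3, Ifit3, Oas3, Stat2, Parp14 and Gbp2 are filled in both, and Tap2 and Trim25 cross 0.

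Cord injury without the toxin was followed by few calls. In SCI+Saline against Sham+Saline, 2 of 34 genes were higher and 5 lower, against 14.7% and 15.8% of all genes, and the median was -0.18 against -0.02. The members' share was thus close to the background for lower genes and below it for higher ones. Gbp3 was lower by 1.20 ± 0.15 (adjusted p = 1.2e-05), Ifit3 by 1.10 ± 0.33 (adjusted p = 0.018), Stat2 by 0.75 ± 0.19 (adjusted p = 0.0063), Tap2 by 0.54 ± 0.18 and Gbp2 by 0.41 ± 0.12. With the score, Ifit3 and Tap2 did not pass (adjusted p = 0.0551 and 0.181). Irf8 and Trim25 were higher, by 0.80 ± 0.23 and 0.55 ± 0.18. Gbp3 alone was called under every setting tested.

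This comparison also turned on 1 array. SCI+Saline replicate 4 was the highest of its 4 arrays in 24 of 34 genes, against 27.3% of all genes, and without it 11 genes were lower (16.4% of all genes). Its neutrophil markers, summed over the 5 of 6 measured genes that were kept, were also the highest of its group (log2 13.58, next 11.91), and its monocyte and macrophage markers were the highest too (11.9, next 11.29). Sham+Saline replicate 4 was likewise the highest of its group in 17 of 34 genes, with summed neutrophil markers at 13.37 and the next array at 7.64. The part of these cells in the result was not tested.

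The order of group means summarises the list. Sham+CDTX had the highest mean in 27 of 34 genes, SCI+CDTX in 6 and Sham+Saline in 1. The 27 include Oas3 and Ifi203, which were kept through Sham+CDTX. SCI+Saline had the lowest mean in 20 genes, Sham+Saline in 13 and Sham+CDTX in 1. Between the toxin groups 17 of 34 genes did not pass, among them Irf8, Irf5, Ifi47 and Tap1, and between the saline groups 27 did not.

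Genes with and without an ISRE core in the window both rose after the toxin. Of the 26 kept genes with a window, 12 of 14 with a core and 10 of 12 without one rose after the toxin in sham mice, with medians of 1.28 and 1.42. After SCI the counts were 9 of 14 and 8 of 12. Of all genes, 23.8% rose in sham mice and 22.1% after SCI. In SCI+CDTX against Sham+CDTX, 8 of 14 genes with a core and 4 of 12 without one were lower, with medians of -0.73 and -0.21. The share of all genes lower there was 15.7%. The 8 include Oas3 and Ifi203, which passed the detection filter through Sham+CDTX, the group whose height makes them lower. The genes printed above were chosen by the size of their changes, so they cannot show a difference by motif. Of these, Ifitm3, Ifit3, Gbp3 and Rsad2, all with ISRE cores, were lower there, while Irf8, with GAS cores only, did not pass. Ifit2, whose window also held a GAS core and no ISRE core, had the largest difference of all members there (-2.08). No test was made of these differences.

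Probes for the interferons themselves were mostly below detection. Of 20 probes for 17 ligand genes, 11 were detected on 0 arrays and 3 were kept, for Ifna1, Ifna6 and Ifne1. None of the 3 was called higher by limma in any comparison, and Ifna1 (-0.51 ± 0.17) and Ifna6 (-0.71 ± 0.16) were lower after the toxin in sham mice. Ifnb1, the type I ligand made first by most cells, was detected on 1 array, and Ifng, the type II ligand, on 0 arrays by either probe. These probes were read at 1 time point, day 2.

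Of 4 kept receptor genes, 3 rose after the toxin in sham mice and 2 rose and 1 fell after SCI, where 23.8% and 22.1% of all genes rose. Ifnar2, a chain of the type I receptor, rose by 1.31 ± 0.23 after the toxin in sham mice and was lower in SCI+CDTX than in Sham+CDTX (-0.73 ± 0.24, adjusted p = 0.0306). Ifnar1, the other chain, was detected on 0 arrays. Ifngr1, the ligand-binding chain of the type II receptor, rose by 0.45 ± 0.17 in sham mice and 0.91 ± 0.18 after SCI, while Ifngr2 fell by 0.53 ± 0.19 after SCI. Il10rb, shared by the type III interferon and IL-10 receptors, rose by 1.49 and 1.64 log2 units. Tyk2 rose by 0.91 ± 0.14 and 1.19 ± 0.16.

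Among the kinases, Jak1 fell after the toxin in SCI mice (-0.70 ± 0.20) and was higher in SCI+Saline than in Sham+Saline (0.96 ± 0.19). Jak2 was lower in SCI+Saline (-0.71 ± 0.17), and Stat3 passed in no comparison.

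A wider list of interferon-stimulated genes, outside the 39, was read in the same way. Of its 31 kept genes, 27 rose and 0 fell after the toxin in sham mice, 20 rose and 1 fell after SCI, and 11 were lower and 2 higher in SCI+CDTX against Sham+CDTX. Over all genes, 23.8% rose and 26.8% fell, 22.1% rose and 22.2% fell, and 15.7% were lower and 16.5% higher in the same order. Plac8 (3.34), Lgals9 (2.97), Ifi30 (2.79) and Trim30 (2.77) had the largest log2 rises in sham mice. Lgals9, a galectin, and Trim30 were also lower in SCI+CDTX than in Sham+CDTX, by 1.96 and 1.48. Cxcl10, the interferon-induced chemokine, had another pattern. It was higher in SCI+Saline than in Sham+Saline by 2.26 ± 0.16, rose by 1.5 ± 0.16 with the toxin in sham mice and fell by 0.72 ± 0.17 with it after SCI. Its probe was detected on 0 Sham+Saline arrays, so both differences from that group are limited by the signal over background.

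Sensors and adaptors upstream of interferon production rose with the toxin in 7 of 10 kept genes in sham mice (1 fell) and in 9 of 10 after SCI, against 23.8% and 22.1% of all genes. Tlr7, the endosomal receptor for single-stranded RNA, rose by 3.15 ± 0.21 and 1.22 ± 0.23, and was lower in SCI+CDTX than in Sham+CDTX by 1.37 ± 0.23. Dhx58, Unc93b1 and Myd88 rose in both settings, while Irf3 fell by 0.60 in sham mice and rose by 0.65 after SCI. Genes of MHC class I and the immunoproteasome rose in 6 of 9 and 7 of 9, against the same shares. B2m, the invariant MHC class I chain, was the only one of the 9 that was lower in SCI+CDTX than in Sham+CDTX (-0.67 ± 0.16, adjusted p = 0.00436). Of 9 negative regulators, 4 rose in sham mice and 5 after SCI, where 23.8% and 22.1% of all genes rose. Socs3, which blocks JAK kinases, was higher in SCI+CDTX than in Sham+CDTX by 1.91 ± 0.33, while Socs1 passed in no comparison. With the score, calls over all genes between these 2 groups fell to 0.642% lower and 1.3% higher. Whether the genes outside the list keep their calls or directions with it was not tested.

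Cell markers moved alongside the members. Summed monocyte and macrophage markers (8 of 9 measured genes kept; Ccr2 was not) were at log2 13.75 to 13.98 in Sham+CDTX and 13.55 to 14.11 in SCI+CDTX, against 9.76 to 11.9 in SCI+Saline and 9.92 to 10.97 in Sham+Saline. The 2 toxin groups overlapped in this sum. Within the list, 3 of 8 genes were higher and 0 lower in SCI+CDTX than in Sham+CDTX, against 16.5% and 15.7% of all genes. Cd14 and Cd163 were among the higher ones, by 1.85 and 1.75. Of the 5 that did not pass, Csf1r was at -0.59 ± 0.26, Emr1 at -0.08 ± 0.35 and Lyz2 at -0.13 ± 0.48. Neutrophil markers were at 11.59 to 12.33 in SCI+CDTX and 9.34 to 9.9 in Sham+CDTX, but none of the 5 genes passed between these groups (adjusted p = 0.0553 for S100a8 and 0.0661 for S100a9). S100a8 (mean 11.3 against 7.99) and S100a9 (9.75 against 6.25) made up most of this sum, while Retnlg (7.82 against 8.24) and Csf3r (6.14 against 6.3) had lower means in SCI+CDTX. Lymphocyte markers (4 of 9 kept) were at 10.41 to 10.78 in SCI+CDTX and 6.26 to 7.15 elsewhere, led by Glycam1, a mucin of lymph node venules, while Cd4 and Cd8a were not kept.

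Of the plasmacytoid dendritic cell list, whose cells make much type I interferon, Siglech did not pass in any comparison, and the sum of the list was dominated by Cox6a2, which muscle fibres also express. NK cell markers (3 of 5 kept) ranged from 6.97 to 7.64 in Sham+CDTX and from 7.43 to 8.27 in the other groups. The muscle fibre sum lay between 16.76 and 17.05 on all 15 arrays, with all 9 of its genes kept. In bulk muscle, more cells of a type and more RNA per cell cannot be told apart, and the part of any cell type in these results was not tested.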

How the data were processed

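The authors deposited mean bead intensity per probe and array, with no normalization or background subtraction, and a detection p-value for each, exported from GenomeStudio 2011.1 with GSGX module 1.9.0, per the file headers and the submitters' processing notes. Their deposited normalized table (average normalization, background subtraction) holds group means of intensity and was used for directions only. Here, the raw intensities of 15 arrays were background-corrected from the detection p-values (normexp), given an offset of 16, quantile-normalized and put on the log2 scale with limma 3.58.1 in R 4.3.3. Probes detected at p under 0.05 on at least 3 arrays were fitted as 4 groups with lmFit and eBayes. The comparisons were Benjamini-Hochberg adjusted over all 14763 kept probes and called at adjusted p under 0.05, and the fit was first tested on simulated data. Quantile normalization gives every array the same distribution, so a change shared by most genes would not show. The number of arrays limits the precision. 0 columns of per-array values went unused.

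All members may be named, and values by array are given for the called members with the largest changes in each comparison (up to 8) and for those called in the interaction. The ligands, receptors and kinases are named whatever their values, 2 genes of the fixed lists are not reported here, and other lists by up to 4 examples of largest change, to which some comparisons of interest were added after their values were seen. The members, lists and tests were chosen with earlier results of these data known. Where all arrays of a group missed a probe, the folds of Ifi203, Ifi204, Oas3 and Tap1 are given as "at least", against the lowest detected signal or the probe's own, whichever is higher. Other values against such a group are fitted values only. Alternatives were the excluded array, the probe difference score, median scaling, no background correction, an offset of 50, slides normalized separately, no or a stricter detection filter (p under 0.01 across all arrays of at least 1 group), trended robust eBayes, only the groups compared, a replicate block, the mean over probes, the authors' table and each array left out. Promoter windows were from RefSeq on GRCm38.p6. Genome positions of the array annotation are cytobands whose build is not given in the sources used here.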

Additional observations from a re-analysis of the deposited data

Results flagged for a closer look

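Of 102 member and group combinations with 4 arrays, 7 had 1 array far from the other 3, by the gap to the nearest array over the range of the group. Chance alone gives about 1 in 20. Sham+CDTX replicate 4 was the lowest for Irf7 (7.15, nearest 7.92, ratio 0.953) and for Oasl2 (9.88, nearest 10.34, ratio 0.928). Sham+CDTX replicate 2 was the highest for Gbp2 (8.45, nearest 8.34, ratio 0.877). Sham+Saline replicate 3 was the lowest for Tap2 (7.64, nearest 7.85, ratio 0.938). Sham+Saline replicate 2 was the lowest for Ifit2 (5.6, nearest 5.77, ratio 0.889) and for Irf9 (6.41, nearest 6.74, ratio 0.865). SCI+Saline replicate 4 was the highest for Tap1 (4.73, nearest 4.32, ratio 0.886).

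The toxin effect differed between SCI and sham mice for 6 members by the limma interaction. It was -2.02 for Ifit2 (adjusted p = 5.63e-05), -1.36 for Oas3 (adjusted p = 0.000125), -1.17 for Ifi203 (adjusted p = 0.000362), -1.22 for Ifitm3 (adjusted p = 0.00642), -1.15 for Irf8 (adjusted p = 0.0174) and 1.76 for Tap2 (adjusted p = 0.000116). None of these 6 kept its call with the probe difference score as a covariate.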

How the results depend on the processing

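Counts of members that moved by over 1.5 times are given here by setting, and the cause was not tested. With all 16 arrays, 0 members were lower in Sham+CDTX against Sham+Saline (2 with 15 arrays) and 0 were higher in SCI+CDTX against Sham+CDTX (2 with 15 arrays). With the probe difference score, those counts were also 0 and 0, 8 were lower in SCI+CDTX against Sham+CDTX (15), 3 were lower in SCI+Saline against Sham+Saline (5), and the interaction had 0 higher (1) and 0 lower (5). Over 11057 genes, all 16 arrays gave 2666 lower and 1049 higher in the first-named 2 cases. With the score these were 9.5% and 1.3%, and the other cases had 0.642% lower, 1581 genes lower, 0.0814% higher and 0.235% lower. With median scaling, 0 were lower in Sham+CDTX against Sham+Saline, 5 were higher (2) and 1 lower (5) in SCI+Saline against Sham+Saline, and 9 were lower in the interaction. Of 10936 genes, 962 were lower, 3343 higher and 561 lower, and 27.2% lower, in the same order. The higher calls in SCI+Saline were thus a smaller share of the members than of all genes. This scaling moved the median of all genes to 0.35, 0.18 and -0.24 in those 3 comparisons. With no background correction 0 were higher in SCI+Saline against Sham+Saline, with only the groups compared 0 were higher and 2 lower there, and with no detection filter 1 was higher there and 1 in SCI+CDTX against Sham+CDTX. Over all genes these were 1557 of 10936, 1169 and 1231 of 10936, 1451 of 18097, and 9.13%, in the same order.

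With the score, Tap2 turned to -0.65 and Trim25 to -0.11 in SCI+CDTX against Sham+CDTX, Tap2 to 1.87 and Zbp1 to 0.56 in Sham+CDTX against Sham+Saline, and Tap2 to -0.34 in the interaction. With median scaling, Gbp2 turned to 0.02 in SCI+Saline against Sham+Saline, and Tap2 to 0.30 and Zbp1 to 0.32 in Sham+CDTX against Sham+Saline, where the authors' deposited table gave 0.01 and 0.14. Leaving out 1 array at a time gave 20 to 24 higher and 0 lower members in SCI+CDTX against SCI+Saline, 27 to 29 higher and 1 to 2 lower in Sham+CDTX against Sham+Saline, 1 to 2 higher and 8 to 16 lower in SCI+CDTX against Sham+CDTX, 1 to 3 higher and 3 to 11 lower in SCI+Saline against Sham+Saline, and 1 to 2 higher and 5 to 6 lower in the interaction. Of all 10936 genes, 1927 to 2519 were higher and 1723 to 2561 lower in SCI+CDTX against SCI+Saline in these fits. In Sham+CDTX against Sham+Saline these were 2376 to 2660 and 2628 to 3007, and in SCI+CDTX against Sham+CDTX 1333 to 1888 and 1261 to 1774. In SCI+Saline against Sham+Saline they were 1389 to 1672 and 1417 to 1790, and in the interaction 1213 to 1640 and 1006 to 1435. Calls that held under every setting with a test numbered 18 of 22, 23 of 30, 6 of 17, 1 of 7 and 0 of 6 in the same order.

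Deviations of same-numbered arrays correlated from -0.27 to 0.40, with the highest value in replicate 4. Arrays of different number were not compared, so these values do not settle whether replicate numbers mark pairs. With the replicate block, 22 and 30 members were called in the toxin comparisons, as without it, 1 was higher in SCI+CDTX against Sham+CDTX, and 8 were called in place of 7 in SCI+Saline against Sham+Saline. Over all 10936 genes these were 4475 and 5431 called, 1638 higher, and 3244 called, in the same order. Members near background, such as Ifi203, Oas3, Oas1a and Ifih1, have folds limited by the signal over background.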
